A study of Rattus norvegicus with 9 samples.

Results

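Matrix metalloproteinases (MMPs) and the tissue inhibitors of metalloproteinases (TIMPs) were followed through 10 genes, Mmp2, Mmp3, Mmp9, Mmp12, Mmp14, Mmp16, Mmp17, Timp1, Timp2, and Timp3. The family was chosen by gene symbol after Mmp12 had been seen to have the largest I/R to Sham difference. The I/R versus Sham values of these genes are therefore given as a description and without a test. The genes were represented by 12 of the 30367 probes, and by 10 of the 19293 gene symbols, on the array. Of the 12 probes, 11 had a signal well above background on every array of some group and were tested, which covered 9 of the 10 genes, and Mmp3 was the gene left out.

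MMPs are zinc-dependent enzymes that cleave extracellular matrix, basal lamina, cell surface proteins, and cytokines, and most are secreted as inactive proenzymes that have to be cleaved. TIMPs bind the active site of MMPs and block them, and some TIMPs also take part in proenzyme activation. In the ischemic brain, MMPs are known for opening the blood-brain barrier early after reperfusion and for remodeling matrix and vessels during recovery.

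Gene expression was measured on 9 one-color arrays from male Sprague Dawley rats, 1 array per rat, in the infarcted hemisphere at day 14. In the Sham group (n = 3) the vessels were exposed without a filament and solvent was injected. The I/R group (n = 3) underwent occlusion of the middle cerebral artery with a nylon suture for 2 h followed by reperfusion, and the DHI group (n = 3) underwent the same surgery and received Danhong injection, an extract of the herbs Danshen and Honghua, through the tail vein every day. The age of the rats, and the infarct size of the rats on the arrays, are not given in the sources used here.

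Expression is given as the log2 intensity of a probe relative to the 75th percentile of its array, so that 0 is the level of that percentile and 1 unit is a 2-fold step. Probes differ in efficiency, and values were compared between arrays for 1 probe and not between probes. On each array, 75.2% to 78.9% of the probes had a signal well above background, and no probe was saturated. The precision was limited by the 3 arrays per group. The 10 neuron, 10 astrocyte, and 9 oligodendrocyte markers were well above background on all 9 arrays.

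DHI 1 stood apart from the other arrays of its group. The summed level of 10 microglia and macrophage markers, each relative to the 75th percentile on a linear scale, was 9.24 to 11.2 in Sham and 43.4 to 125 in I/R, and it was 64.7 in DHI 1, 12.5 in DHI 2, and 13.2 in DHI 3. The 10 neuron markers summed to 84.2 to 94.2 in Sham and 7.79 to 41.5 in I/R, and to 26.9 in DHI 1, 92.8 in DHI 2, and 68.8 in DHI 3. I/R 3 had the lowest microglia and the highest neuron level of the I/R arrays. The labels put DHI 1 in the DHI group, and whether the array carries the right label or this rat differed from the other 2 cannot be told apart in these data. Where a DHI difference of an MMP or TIMP gene has a p-value, it is therefore also given without DHI 1, with no p-value. DHI 1 was singled out by its own values. Differences, SEs, and counts past the thresholds without it are a description and not a test, since that choice also affects the SE. The DHI arrays shared a slide that held no Sham or I/R array, so that slide and DHI cannot be told apart. In tissue RNA, fewer cells of a type and less RNA per cell cannot be told apart either.

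Mmp12, Mmp2, and Timp1 carried the largest I/R to Sham differences among the genes, and the sequences that measured them are shown 5′ to 3′, with the positions of the deposited files (rn4). The Mmp12 probe lies at chr8:4259057-4259413 on the plus strand and the Timp1 probe at chrX:12542700-12543703 on the minus strand. Both spans are longer than the 60 bases of a probe. The Mmp2 probe shown is the second of its gene, at chr19:15246805-15246864 on the minus strand.
Mmp12 probe: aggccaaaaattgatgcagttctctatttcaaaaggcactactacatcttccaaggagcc
Mmp2 second probe: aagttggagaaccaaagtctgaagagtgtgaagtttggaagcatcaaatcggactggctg
Timp1 probe: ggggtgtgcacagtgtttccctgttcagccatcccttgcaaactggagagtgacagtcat

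Windows of 300 bases around the gene start, 250 before and 50 after, were read from RefSeq (GRCr8) and matched 5 of the 10 genes by symbol, Mmp3, Mmp12, Timp1, Timp2, and Timp3. They were searched on both strands for the AP-1 motif TGAGTCA, a site bound by Fos and Jun proteins, and for the TATA box TATAAA. Mmp12 (chr8:12866402-12866701, plus strand) and Mmp3 (chr8:12925031-12925330, plus strand) held both, and the 3 Timp windows held neither. Among all 33469 windows, 4.63% held the AP-1 motif and 14.2% the TATA box. The windows of Mmp12 and Mmp3 are shown because Mmp12 and Mmp3 share these motifs while their array values differed, and capitals mark the AP-1 motif and then the TATA box.
Mmp12 window: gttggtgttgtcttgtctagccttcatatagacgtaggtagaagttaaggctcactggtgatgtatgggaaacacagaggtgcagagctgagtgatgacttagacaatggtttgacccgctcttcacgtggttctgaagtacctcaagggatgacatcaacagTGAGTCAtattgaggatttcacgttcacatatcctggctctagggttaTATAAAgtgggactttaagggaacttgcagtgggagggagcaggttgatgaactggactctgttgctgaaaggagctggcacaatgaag
Mmp3 window: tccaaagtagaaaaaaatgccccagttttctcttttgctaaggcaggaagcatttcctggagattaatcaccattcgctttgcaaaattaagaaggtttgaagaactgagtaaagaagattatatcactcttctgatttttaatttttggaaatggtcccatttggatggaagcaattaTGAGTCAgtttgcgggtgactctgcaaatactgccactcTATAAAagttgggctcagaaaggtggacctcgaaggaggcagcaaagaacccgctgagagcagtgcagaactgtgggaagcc
The AP-1 motif began 87 bases before the gene start in Mmp12 and 71 bases before it in Mmp3, and the TATA box began 39 and 32 bases before it. These matches are a description of the sequence and were not tested as binding sites.

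Mmp12 encodes macrophage elastase, an MMP made mainly by macrophages that degrades elastin. In Sham, the log2 level of Mmp12 was -9.97, -8.99, and -9.99, and all 3 arrays were not well above background. The I/R arrays had -0.47, 0.80, and -3.09, all well above background, with the lowest level in I/R 3. The DHI arrays had -1.01, -8.79, and -8.96, so that DHI 1 lay within the I/R range, and DHI 2 and DHI 3 were not well above background. With each Sham array set to its lowest signal that was well above background, the I/R mean of Mmp12 was 241-fold above Sham. This fold depends on that floor and is not a lower limit. The measured means differed by 8.73 log2, the measure that chose the family, and by 4.59 log2 with normexp background correction, so that the size of this difference depends on how the dim Sham signals were treated.

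The DHI mean of Mmp12 differed from the I/R mean by -5.33 log2, and by -2.62 log2 with normexp. These values rest on 2 DHI arrays at background, and Mmp12 chose the family by the same I/R arrays and entered the fit through them alone, so that no test is given. With the 2 DHI arrays other than DHI 1 set to the same kind of floor, the I/R mean was 157-fold higher, which is not a lower limit either. No fold is given between DHI and Sham, since DHI 1 was the only array of these 2 groups that was well above background. The 2 spots of this probe had a median SD of 0.07 log2 within an array, and the rats of a group had an SD of 0.57 to 4.54 log2.

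**Figure D1:**
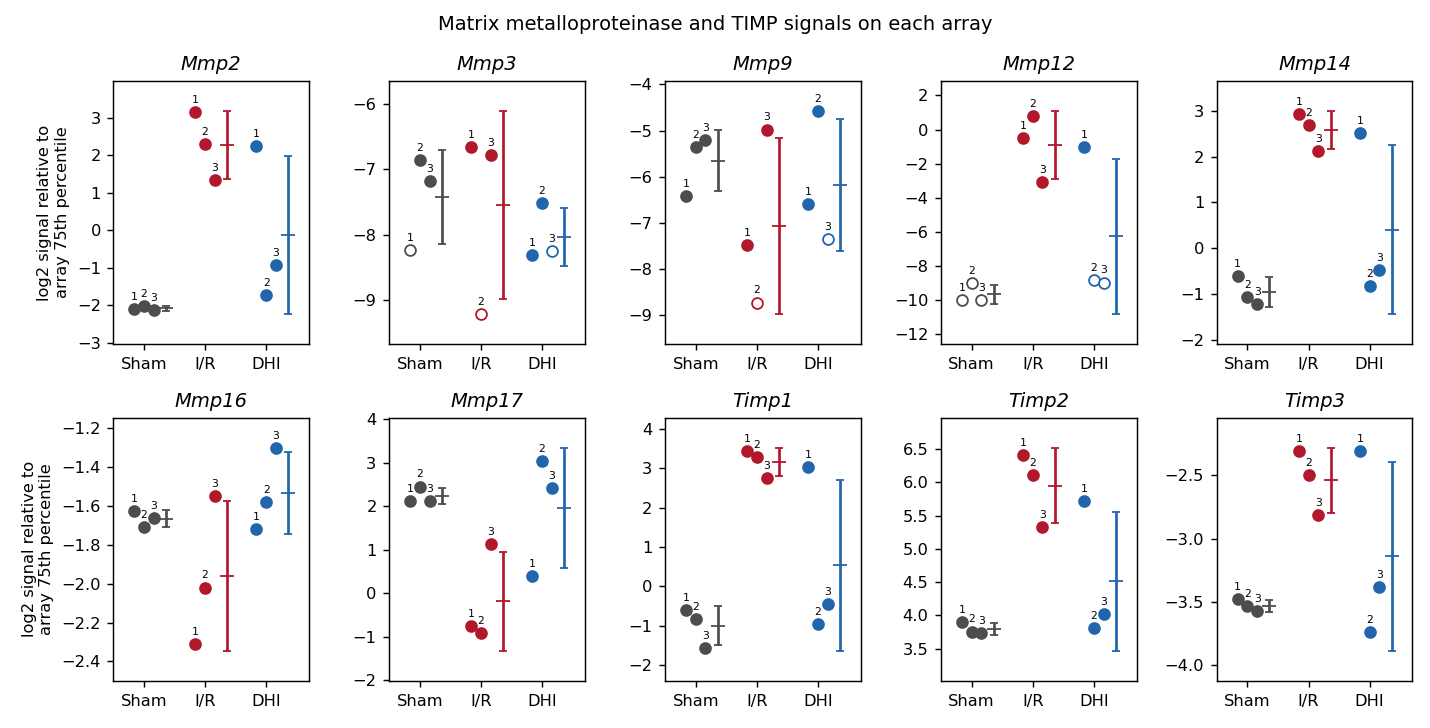
Log2 signal of a probe, with the 75th percentile of its array set to 0 (vertical axis, a separate scale in each panel) for the 10 genes in Sham, I/R, and DHI. Points are arrays with their replicate numbers, open points were not well above background, and bars give the mean and SD of 3 arrays. For Mmp2, Mmp12, Mmp14, Timp1, and Timp2, DHI 1 lies within or next to the I/R arrays and DHI 2 and DHI 3 near the Sham arrays.

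Mmp2 and Mmp9 encode gelatinase A and gelatinase B, which cleave denatured collagen and type IV collagen of the basal lamina. Mmp2 was measured by a first probe (chr19:15246221-15246280) with log2 levels of -2.10, -2.01, and -2.13 in Sham, 3.15, 2.30, and 1.34 in I/R, and 2.25, -1.72, and -0.92 in DHI. All I/R arrays lay above all Sham arrays, by a log2 difference of 4.34 between the means, and so did the 3 DHI arrays, while DHI and I/R overlapped. The second Mmp2 probe, at -4.76, -4.97, and -4.87 in Sham, 0.51, -0.35, and -1.29 in I/R, and -0.40, -4.76, and -3.71 in DHI, gave a log2 difference of 4.49 for I/R versus Sham. Both probes thus placed DHI 1 among the I/R arrays.

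Mmp2 was lower in DHI than in I/R by -2.39 log2 (SE 0.94), that is 5.25-fold (limma, unadjusted p = 0.0346, adjusted p = 0.196), and by -2.58 log2 on the second probe. Without DHI 1 the difference was -3.58 log2 (SE 0.49). Compared with Sham, Mmp2 was 1.95 log2 higher in DHI (SE 0.94), which did not pass the test (limma, unadjusted p = 0.0721, adjusted p = 0.709), and 0.76 log2 higher without DHI 1. On the second probe, DHI 2 and Sham 1 were nearly equal.

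Mmp9 did not follow Mmp2. Its probe (chr3:155992463-155992522) had log2 levels of -6.41, -5.35, and -5.20 in Sham, -7.48, -8.72, and -4.98 in I/R, and -6.60, -4.58, and -7.35 in DHI. The 3 groups overlapped, and I/R 2 and DHI 3 were not well above background. The log2 difference of Mmp9 was -1.40 (SE 1.02) for I/R versus Sham, 0.88 (SE 1.02) for DHI versus I/R (limma, adjusted p = 0.542), and -0.52 for DHI versus Sham (limma, adjusted p = 0.826). Without DHI 1 the last 2 differences were 1.09 and -0.32 log2. The 10 spots per array had a median SD of 0.18 log2, and the rats of a group an SD of 0.66 to 1.91 log2.

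Mmp3 encodes stromelysin-1, which cleaves laminin, fibronectin, and other proenzymes. Its signal was near background, with log2 levels of -8.23, -6.85, and -7.18 in Sham, -6.66, -9.21, and -6.79 in I/R, and -8.32, -7.52, and -8.25 in DHI. Sham 1, I/R 2, and DHI 3 were not well above background, the groups overlapped, and the median SD of the 2 spots was 1.13 log2. The mean of Mmp3 differed by -0.13 log2 between I/R and Sham and by -0.48 log2 between DHI and I/R, and these differences were not tested.

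Mmp14, Mmp16, and Mmp17 encode membrane-anchored MMPs that act at the cell surface. MMP14 activates proMMP2 together with TIMP2, MMP16 is a related transmembrane enzyme with prominent expression in brain, and MMP17 is held by a glycosylphosphatidylinositol anchor. Mmp14 (chr15:32503002-32503061) had log2 levels of -0.60, -1.07, and -1.22 in Sham, 2.93, 2.69, and 2.13 in I/R, and 2.53, -0.82, and -0.49 in DHI. Sham and I/R did not overlap, DHI 1 lay inside the I/R range, and DHI 3 lay just above the highest Sham array. The I/R mean of Mmp14 was 3.55 log2 above Sham, an 11.7-fold difference.

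In DHI, Mmp14 was 4.52-fold below its I/R level, at -2.18 log2 (SE 0.79, limma, unadjusted p = 0.0251, adjusted p = 0.196). Without DHI 1 it was -3.24 log2 (SE 0.29). The DHI mean was 1.37 log2 above Sham (limma, unadjusted p = 0.122, adjusted p = 0.709) and 0.31 log2 above it without DHI 1.

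Mmp16 (chr5:32586387-32586446) spanned the narrowest range of the 10 genes. Its log2 levels were -1.62, -1.71, and -1.66 in Sham, -2.31, -2.02, and -1.55 in I/R, and -1.72, -1.58, and -1.30 in DHI. All 3 groups overlapped. The Mmp16 difference was -0.29 log2 (SE 0.22) for I/R versus Sham, 0.43 log2 (SE 0.22) for DHI versus I/R (limma, unadjusted p = 0.0837, adjusted p = 0.220), and 0.13 log2 for DHI versus Sham (limma, adjusted p = 0.799). Without DHI 1 the last 2 were 0.52 and 0.23 log2, and without scaling between arrays they were negative, at -0.035 and -0.13 log2.

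Mmp17 ran opposite to Mmp2, Mmp12, and Mmp14. The probe with the higher signal (chr12:28142947-28143006) had log2 levels of 2.12, 2.46, and 2.13 in Sham, -0.75, -0.92, and 1.13 in I/R, and 0.40, 3.05, and 2.42 in DHI. All I/R arrays lay below all Sham arrays, by -2.42 log2 between the means, and DHI 1 was again within the I/R range. The other Mmp17 probe (chr12:28144791-28144850) had -3.32, -2.97, and -3.03 in Sham, -6.50, -6.38, and -4.16 in I/R, and -5.32, -2.79, and -3.19 in DHI, with a difference of -2.57 log2 for I/R versus Sham. I/R 3 was the I/R array closest to Sham on both probes.

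Mmp17 was 4.39-fold higher in DHI than in I/R, at 2.14 log2 (SE 0.74, limma, unadjusted p = 0.0209, adjusted p = 0.196), and 1.91 log2 higher on the other probe. With DHI 1 left out, the difference was 2.91 log2 (SE 0.59). In DHI versus Sham the difference was -0.28 log2 (limma, adjusted p = 0.871), and it was 0.50 log2 without DHI 1, which turned its direction.

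Timp1 encodes an inducible inhibitor that binds proMMP9 and most soluble MMPs. Its log2 levels were -0.60, -0.82, and -1.55 in Sham, 3.42, 3.28, and 2.75 in I/R, and 3.03, -0.95, and -0.45 in DHI. Sham and I/R did not overlap, DHI 1 was within the I/R range, DHI 2 was within the Sham range, and DHI 3 was just above it. The I/R mean of Timp1 was 4.14 log2 above Sham, or 17.6-fold. Its 10 spots per array had a median SD of 0.03 log2.

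The DHI level of Timp1 was 6.09-fold below I/R, at -2.61 log2 (SE 0.93, limma, unadjusted p = 0.0229, adjusted p = 0.196). Without DHI 1 it was -3.85 log2 (SE 0.34). Relative to Sham, the DHI mean was higher by 1.53 log2 (limma, unadjusted p = 0.137, adjusted p = 0.709), or by 0.29 log2 without DHI 1.

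Timp2 encodes the inhibitor that pairs with MMP14 in the activation of proMMP2. The Timp2 probe (chr10:108311244-108311303) had log2 levels of 3.90, 3.76, and 3.73 in Sham, 6.42, 6.11, and 5.33 in I/R, and 5.72, 3.81, and 4.01 in DHI. I/R lay above Sham on all arrays, by 2.15 log2 between the means. In DHI versus I/R, Timp2 differed by -1.44 log2 (SE 0.50, limma, unadjusted p = 0.0207, adjusted p = 0.196), and by -2.04 log2 without DHI 1. DHI 2 lay inside the Sham range, and the DHI mean was 0.72 log2 above Sham (limma, adjusted p = 0.709), or 0.12 log2 without DHI 1.

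Timp3 encodes an inhibitor bound to the extracellular matrix that also blocks ADAM proteases. Its probe (chr7:19679721-19679780) had log2 levels of -3.48, -3.54, and -3.58 in Sham, -2.31, -2.50, and -2.81 in I/R, and -2.30, -3.74, and -3.38 in DHI. The I/R mean was 0.99 log2 above Sham, with no overlap, the smallest such difference among the 3 inhibitors. Timp3 did not pass the thresholds in DHI versus I/R, at -0.60 log2 (SE 0.34, limma, unadjusted p = 0.118, adjusted p = 0.254), and was at -1.02 log2 without DHI 1. In DHI versus Sham the difference was 0.39 log2 (limma, adjusted p = 0.714) and -0.03 log2 without DHI 1.

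**Figure D2:**
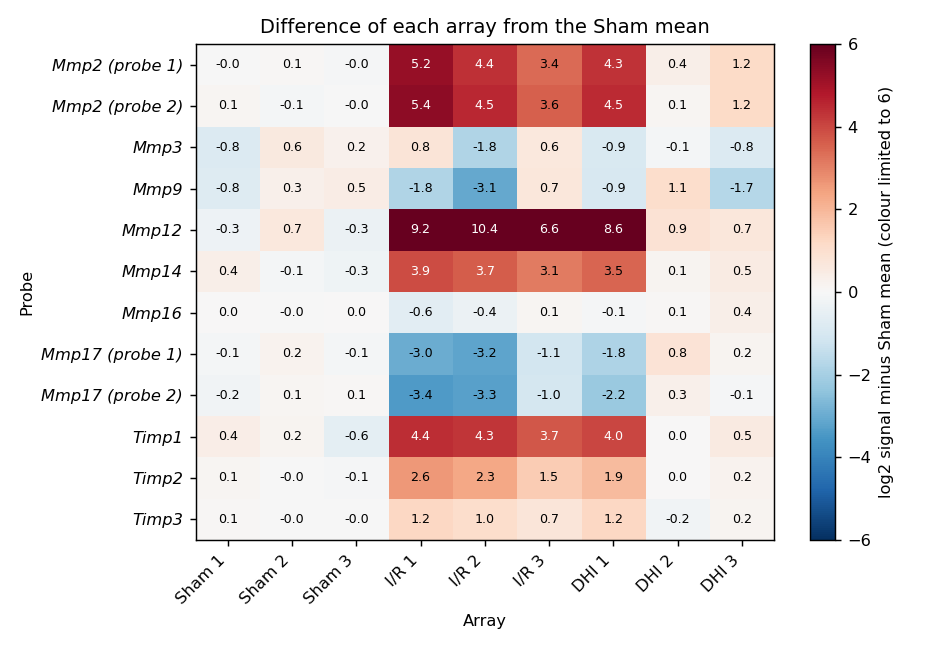
Log2 signal of each of the 12 probes on each of the 9 arrays after subtraction of the Sham mean of the probe, printed in each cell, with colors limited to 6 log2 units in each direction. The DHI 1 column resembles the I/R columns for Mmp2, Mmp12, Mmp14, Mmp17, and the 3 Timp genes, and both probes of Mmp2 and of Mmp17 give the same pattern.

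Counted over the family, 7 of the 9 tested genes had no overlap between the arrays of I/R and of Sham, with 6 higher in I/R and 1, Mmp17, lower, beside 62.5% of all 23747 probes tested. The median log2 difference of the 9 genes was 2.15 and that of all probes -0.10. This comparison was used in choosing the genes and nothing is read from these counts.

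Between DHI and I/R, a gene passed the study's thresholds with FC over 1.5 and an unadjusted p under 0.05. Probes that were well above background on every I/R array, but not on every Sham or every DHI array, entered the fit through I/R alone and were set aside, and Mmp12 was the only such gene of the family. Of the other 8 tested genes, 5 passed, compared with 21.3% of the 23251 probes left. Mmp2, Mmp14, Timp1, and Timp2 were lower and Mmp17 was higher in DHI, and the median of the 8 genes was -1.02 log2 beside 0.12 for the 23251 probes. With Mmp12 counted, it was 6 of 9 genes beside 21.9% of all probes. The I/R arrays of this comparison also took part in choosing the genes. With an adjusted p under 0.05 (limma, Benjamini-Hochberg), 0 of the 8 genes passed, compared with 0.00421% of all probes. The arrays overlapped for all 9 genes, whereas 9.53% of all probes did not overlap. The methods' t-test passed 0 of the 8 genes, beside only 1.92% of the probes left.

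The 5 calls depended on the arrays in the fit, and so did the share of all probes. Among the 8 genes the count was 0 when I/R 1, I/R 2, DHI 2, or DHI 3 was left out. The shares of the 23251 probes were then 5.65%, 6.77%, 3.79%, and 4.56%. It was 6 without I/R 3, which added Mmp16, beside 32.1% of the probes. Without DHI 1 it was also 6, with Timp3 in addition, beside 44.5% of the probes, which is given as a description.

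In DHI versus Sham, with Mmp12 set aside, 0 of the tested genes passed the thresholds with an unadjusted or adjusted p (limma). Of all probes, 3.58% passed with the unadjusted and 0% with the adjusted p. The arrays of Mmp2 did not overlap between these groups, with DHI higher, compared with 18.6% of all probes. Those of Mmp12 did not overlap either, but with 2 DHI and 3 Sham arrays not well above background nothing is read from their order. The median of the 9 genes was 0.72 log2 beside 0.02 for all probes. The methods' t-test also passed 0 of the genes, beside only 1.88% of all probes. Leaving out DHI 2 gave 3 genes, Mmp2, Mmp14, and Timp1, all higher in DHI, beside 10.6% of all probes in that fit. A difference that missed the thresholds does not show that DHI and Sham levels were equal.

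**Figure D3:**
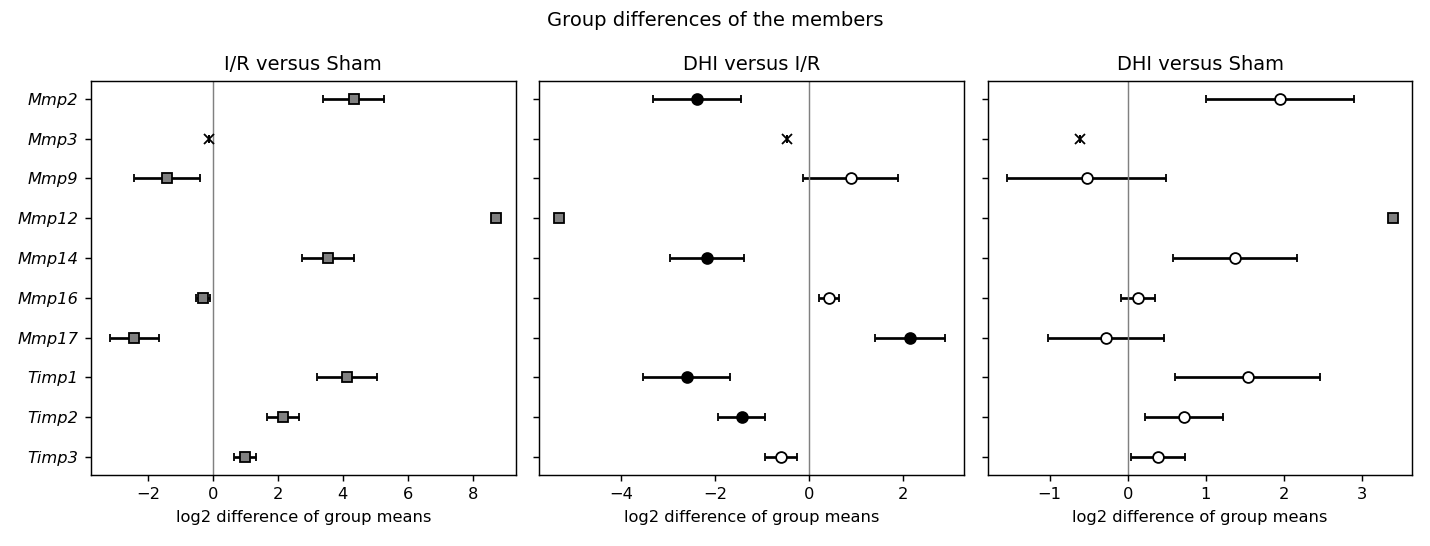
Log2 differences of the group means with their SE from the limma fit for each pair of groups (horizontal axes differ in scale). Grey squares are not tested, that is, the comparison that chose the genes and Mmp12 throughout, which is drawn without its SE, filled circles passed the thresholds, open circles did not, and the crosses are Mmp3, which was not tested and has no SE. In the middle panel Mmp2, Mmp14, Timp1, and Timp2 lie between -2.61 and -1.44 and Mmp17 at 2.14.

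The balance of enzyme and inhibitor RNA was followed as the log2 ratio of 2 probes within an array, which does not depend on the scaling between arrays but does depend on the background correction where a probe is dim. Its value depends on the 2 probes, and only differences between arrays can be read. The Mmp2 to Timp2 ratio was -6.003, -5.76, and -5.86 in Sham, -3.27, -3.82, and -3.99 in I/R, and -3.47, -5.53, and -4.93 in DHI. All I/R and all DHI arrays lay above all Sham arrays, while DHI 1 was within the I/R range. The mean ratio was 2.19 log2 higher in I/R than in Sham.

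The Mmp12 to Timp1 ratio was -9.37, -8.17, and -8.43 in Sham, -3.89, -2.48, and -5.84 in I/R, and -4.04, -7.84, and -8.51 in DHI. Mmp12 was not well above background in Sham, DHI 2, and DHI 3, so these ratios depend on how the background was treated. The Mmp9 to Timp1 ratio was -5.82, -4.52, and -3.65 in Sham, -10.90, -12.00, and -7.72 in I/R, and -9.63, -3.63, and -6.91 in DHI. This ratio was lower in I/R than in Sham on all arrays, and it too rests on dim Mmp9 signals in I/R 2 and DHI 3.

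In DHI versus I/R, the Mmp9 to Timp1 ratio differed by 3.49 log2 (exact permutation test, two-sided p = 0.2, adjusted over the 3 ratios p = 0.3). The Mmp2 to Timp2 ratio differed by -0.95 log2 (exact permutation test, p = 0.3, adjusted p = 0.3). Without DHI 1 the differences were 4.94 and -1.54 log2, and without DHI 2 they were 1.94 and -0.51 log2. The smallest p that 3 against 3 arrays can give is 0.1. In DHI versus Sham the ratios differed by -2.06 and 1.23 log2 (exact permutation tests, p = 0.4 and 0.1, adjusted p = 0.4 and 0.3). The Mmp12 to Timp1 ratio was not compared, since its measured difference between DHI and I/R was -2.73 log2 here and -0.055 log2 with normexp.

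**Figure D4:**
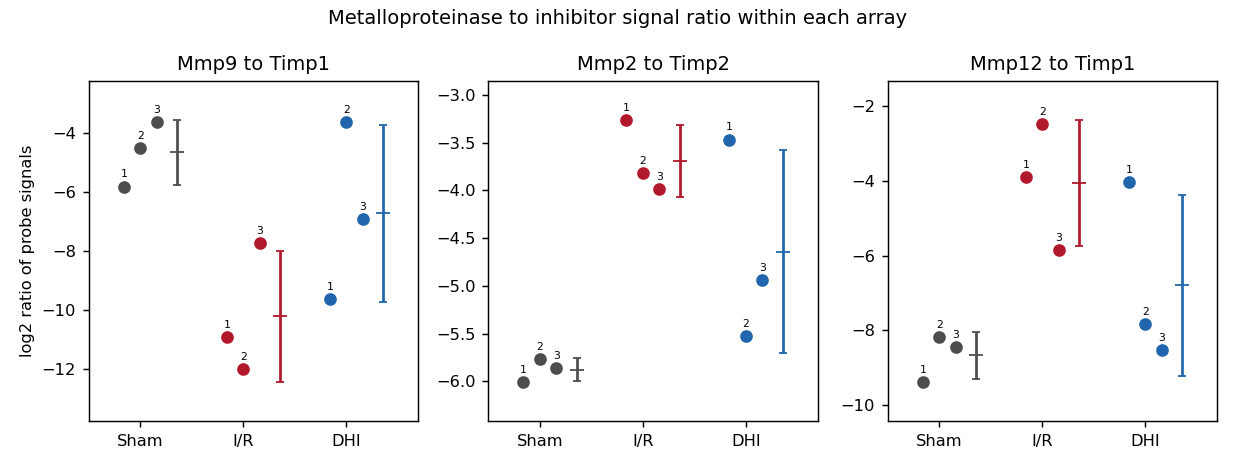
Log2 ratio of the signals of an MMP probe and a TIMP probe within each array (vertical axis) in Sham, I/R, and DHI. Points are arrays with their replicate numbers and bars the mean and SD of 3 arrays. In the Mmp2 to Timp2 panel the Sham arrays lie between -6.003 and -5.76 and the I/R arrays between -3.99 and -3.27.

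The genes whose values over the 9 arrays were most like those of a member were found by the root mean square (RMS) difference of centered, SD-scaled values among 15590 genes. For Mmp12 these were Lrrc15, Cd300le-ps1, Pltp, Klra5, and LOC502907, with RMS differences of 0.07 to 0.09 SD. For Mmp14 they were Cd40, LOC684122, Bgn, Gpx7, and Serping1, at 0.04 to 0.06 SD. Bgn, which encodes the matrix proteoglycan biglycan, was also among those of Timp1, together with RGD1309808, Casp12, Siglec1, and Col1a1, at 0.05 to 0.07 SD. Siglec1, a macrophage surface receptor, was 7.44 log2 above Sham in I/R, and Col1a1, a chain of type I collagen, 4.78 log2 above it. These likenesses describe 9 arrays that share the same group differences.

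Of the remaining MMPs and inhibitors, 13 genes were tested and 6 were too dim to test. Mmp8 and Mmp19 entered the fit through I/R alone, and 2 of the other 11 genes passed the thresholds in DHI versus I/R, both lower, a share of 18.2% beside the 21.3% of probes above. The median of the 11 genes was -0.28 log2, and that of all 13 genes -0.68 log2. Mmp19, a secreted MMP, was well above background on 1 of 3 DHI arrays and 0 of 3 Sham arrays, and its difference is not given. Mmp23, a small membrane-bound MMP, was lower by -1.94 log2 (SE 0.77), and A2m, the broad protease inhibitor alpha-2-macroglobulin, by -3.53 log2 (SE 1.32). For these genes, and for each gene of the next 4 lists that passed, the limma adjusted p was 0.196.

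Among the activators of MMPs and their partners at the cell surface, 5 of 15 genes passed, all lower in DHI. That is 33.3%, beside 21.3% of the 23251 probes. The median of the 15 genes was -0.57 log2 beside 0.12 for the probes, or -0.78 log2 with the 2 genes that entered the fit through I/R alone. Plau, the urokinase that converts plasminogen to the MMP activator plasmin, was one of these 2, with 1 of 3 DHI arrays well above background. Cd44, a hyaluronan receptor that can hold MMP9 and MMP14 at the cell surface, was lower by -2.36 log2 (SE 0.83). Cd63, Itgb1, Furin, and Plat were also lower, at -1.57, -1.22, -0.82, and -0.78 log2. Furin encodes a protease that activates membrane-type MMPs.

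Of the ADAM and ADAMTS proteases, relatives of the MMPs, 8 of 13 tested genes passed, 7 lower and 1 higher, beside 21.3% of probes. The list median was -0.78 log2 beside 0.12 for the probes. Adam17, which sheds tumor necrosis factor and is blocked by TIMP3, was lower by -1.28 log2 (SE 0.44). The procollagen peptidase Adamts2 was lower by -2.19 log2 (SE 0.82), and Adamts3 was the gene that was higher, by 1.33 log2 (SE 0.44). Adam10, Adam15, Adamts5, Adamts9, and Adamts15 were lower by -0.60 to -1.51 log2.

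Basal lamina and junction proteins that MMPs can cleave gave 8 of 16 tested genes, all lower, beside 21.3% of probes. The list median was -1.20 log2 beside 0.12 for the probes. Eln, which encodes elastin, the substrate that gives MMP12 its name, was lower by -2.59 log2 (SE 0.77). Nid2 and Nid1, which encode the linker proteins nidogens, were lower by -2.29 and -1.71 log2, and the collagen IV chain Col4a1 by -1.82 log2 (SE 0.65). The laminin chains Lama2, Lamb2, and Lamc1 were lower by -2.08, -1.12, and -1.04 log2, and Sparc, a matrix protein that binds collagen, by -1.32 log2. The tight junction genes Cldn5, Ocln, and Tjp1 did not pass, at -0.14, 0.31, and -0.34 log2, and were picked out after their values were seen.

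Cytokines and transcription factors known to induce MMP genes gave 8 of 17 tested genes, all lower, beside 21.3% of probes. The list median was -0.91 log2 beside 0.12 for the probes. Tgfb1 and Il1b were lower by -2.39 log2 (SE 0.83) and -1.97 log2 (SE 0.80). The AP-1 member Fosl1 was lower by -1.77 log2 (SE 0.50), while Fos, Jun, and Jund did not pass, at -0.24, -0.02, and 0.34 log2, and were likewise picked out afterwards. Runx1, Ets1, Nfkb1, Cebpb, and Rela were lower by -1.78, -1.68, -1.32, -0.98, and -0.91 log2.

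The counts of the 5 lists depended on the test and the arrays, and so did the share of probes. With the methods' t-test they were 0, 0, 1, 0, and 0 in the same order, beside 1.92% of the probes left. Without I/R 1 they were 0, 0, 1, 1, and 1, beside 5.65%. Without I/R 3 they were 2, 9, 8, 8, and 9, beside 32.1%. As a description without DHI 1, the 5 lists gave 5 of 11, 10 of 15, 10 of 13, 12 of 16, and 11 of 17 genes past the thresholds in the same order, beside 44.5% of the 23251 probes. Of these, 1, 1, 1, 0, and 1 were higher in DHI, and the medians were -0.25, -0.84, -1.17, -1.81, and -1.36 log2 beside 0.20 for the probes. Between DHI and Sham, the lists gave 1 of 13, 1 of 17, 0 of 13, 1 of 16, and 2 of 17 genes, or 0 to 11.8% beside 3.58% of all probes. These genes are named here because they were few and were chosen after their values were seen. Timp4 was lower by -0.91 log2, Lcn2 and Nid1 were higher by 1.93 and 2.10 log2, and Fos and Junb were lower by -2.34 and -1.45 log2, each with a limma adjusted p of 0.709.

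**Figure D5:**
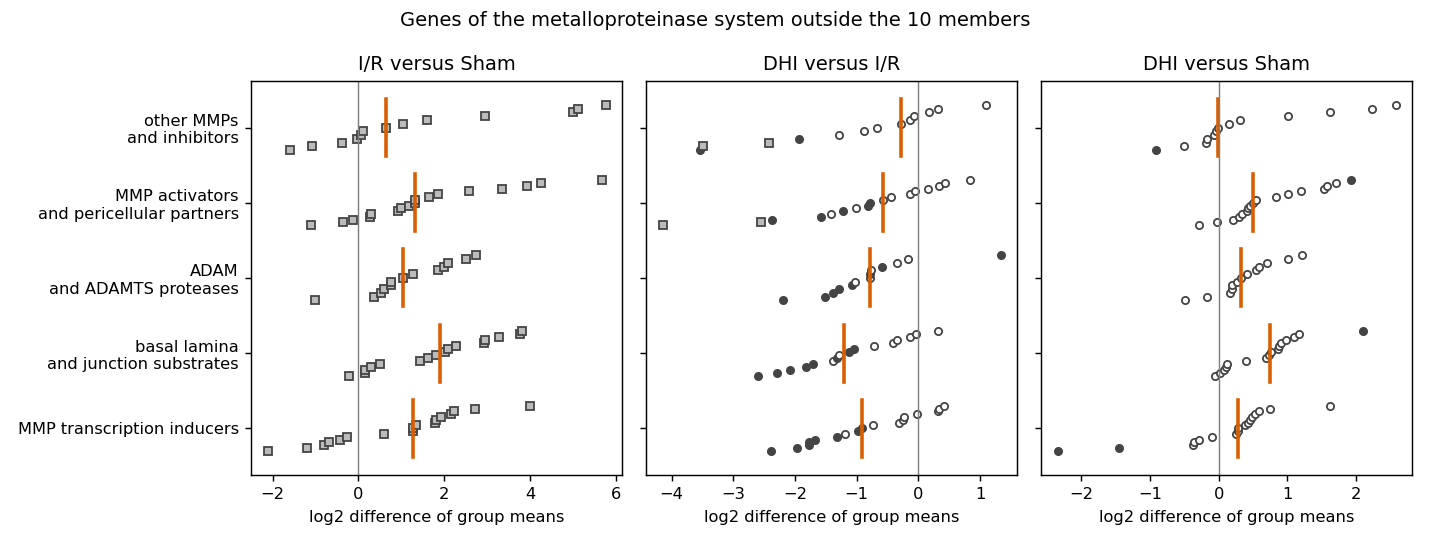
Log2 differences of the group means (horizontal axes differ in scale) for the tested genes of 5 lists around the MMP system in the 3 comparisons. Grey squares mark the left panel and, in the middle panel, genes that entered the fit through I/R alone, which the medians there leave out, filled circles passed the thresholds, open circles did not, and orange lines are list medians. In DHI versus I/R the medians lie between -1.20 and -0.28, and Adamts3 is the only filled circle to the right of 0.

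Levels of some cell type markers moved with the MMP and TIMP values, while those of oligodendrocytes overlapped between Sham and I/R. The part of the markers in the results was not tested. The sums are on a linear scale, so that bright markers weigh most and a sum need not hold for each marker. In I/R, Sham, and DHI, the 10 markers of infiltrating or lipid-laden macrophages summed to 30.2 to 76.7, 0.66 to 1.03, and 0.60 to 65.2, with the highest DHI level in DHI 1 and with Ccr2 well above background on 1 array in all, DHI 1. The 12 markers of mural cells and fibroblasts summed to 76.2 to 123 in I/R, 7.67 to 13.0 in Sham, 106 in DHI 1, and 8.47 and 9.34 in the other DHI arrays. The 8 neutrophil markers summed to 0.34 to 0.97 in I/R, 0.08 to 0.12 in Sham, and 0.15 to 0.43 in DHI, and for Elane all arrays were not well above background. Of these lists, 2 of 8 (with Msr1 set aside as entering through I/R alone), 6 of 12, and 1 of 5 tested genes were lower in DHI than in I/R at the thresholds, and 1 neutrophil gene was higher, beside 21.3% of probes in either direction. Of the microglia and macrophage markers, 8 of 10 were lower, and of the neuron markers 8 of 10 were higher, beside the same 21.3%. With the methods' t-test the counts of these 2 lists were 0 and 0, beside 1.92% of probes. They were 5 and 0 with only the 2 groups compared, beside 8.62%. Without I/R 1 they were 1 and 0, beside 5.65%, and without I/R 3 they were 8 and 8, beside 32.1%.

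The remaining marker lists are given for Sham, I/R, and DHI. Astrocyte markers summed to 64.0 to 71.7 in Sham, 96.6 to 131 in I/R, and 64.2 to 105 in DHI, and endothelial markers to 6.04 to 6.92, 7.46 to 10.6, and 6.24 to 8.16. Oligodendrocyte markers summed to 148 to 176, 114 to 169, and 162 to 207, and red blood cell markers to 4.62 to 38.6, 2.87 to 4.14, and 9.39 to 49.99. Choroid plexus markers summed to 0.54 to 1.19 in Sham, 1.67, 3.73, and 94.8 in I/R, and 139, 7.58, and 74.8 in DHI. The highest choroid plexus level of the I/R arrays was in I/R 3, where Mmp12, Mmp14, and Timp1 were lowest, and that of the DHI arrays in DHI 1, where they were highest. In DHI versus I/R, 4 of 10 astrocyte and 1 of 10 endothelial markers were lower at the thresholds. Of the oligodendrocyte markers 2 of 9 were higher, and of 5 red blood cell markers 4 were higher and 1 lower. The choroid plexus list, with Slc4a5 set aside, gave 0 of 6, all beside 21.3% of probes.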

How the data were processed

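Total RNA of the infarcted hemisphere of 9 rats was labeled with Cy3 and hybridized to one-color Agilent rat arrays, read with Agilent Feature Extraction 10.7.1.1 per the labels. The authors deposited, for each array, the background-corrected processed intensity of every spot, which is linear and without scaling across arrays. A further deposited table of the whole series holds log2 values by probe and was used as an alternative.

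Control spots and spots marked as outliers (392 to 725 per array) were left out, spots of a probe were averaged as log2 values, and the log2 of the 75th percentile of the array was subtracted. Groups were taken from the sample labels. Probes entered the test where every array of some group had a signal well above background. One limma model (R 4.3.3, limma 3.58.1, and the data.table package, version 1.17.8) was fitted over all 9 arrays and 23747 probes. Its DHI versus I/R comparison was also run on simulated log2 values, and the other steps were not. The thresholds were those of the paper (p under 0.05 and FC over 1.5), with Benjamini-Hochberg adjusted p beside them. For a group not above background, folds used the lowest signal that was well above background on the array, or that of the probe itself where it was higher. These folds are not lower limits, since some probes above that signal were not well above background. Ratios were compared by exact two-sided permutation tests.

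The members and all gene lists were chosen with earlier results of these data known. The genes named are the 10 members, the genes of each list past the thresholds in DHI versus I/R (or the 2 with the largest difference), except for a result that is not reported here, and the 5 genes most like Mmp12, Mmp14, and Timp1. A gene was represented by its probe with the highest mean signal, and Mmp1 and Mmp1a, which shared a probe, were counted once. The alternatives were no scaling, quantile normalization, normexp (offset 50), the log2 values of the series, 2 other filters on dim probes, only the 2 groups compared, the methods' t-test, a block for the replicate number, the mean over probes of a gene, leaving out each array, and, chosen after seeing the data, setting aside genes that entered the DHI versus I/R test through the I/R arrays alone. Coordinates are those of the deposited files (rn4), and no annotation of exons of that build was used. The limma p-values set a difference against the spread between rats, 3 per group, and do not account for the slide that the DHI arrays shared.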

Additional observations from a re-analysis of the deposited data

How the results depend on the processing

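With quantile normalization, the series table, either filter on dim probes, and the mean over probes of a gene, the count of MMP and TIMP genes past the thresholds, counted with Mmp12, stayed within 1.5 times its value in each comparison. Setting aside genes tested through I/R alone, an alternative chosen after seeing the data, moved it from 6 to 5 in DHI versus I/R. There it was 3 (Mmp17, Timp1, and Timp2) in a model of only the 2 groups compared, 0 with the methods' t-test, and 0 to 7 when an array was left out. In DHI versus Sham it was 0 to 3 when an array was left out, beside 1.45% to 10.6% of all probes. With the replicate number as a block it was 1 (Mmp2), beside 5.39%. The labels do not say whether equal replicate numbers pair samples. Deviations of same-numbered arrays correlated at -0.34 to 0.48, which cannot settle this, and the block is given for completeness. The cause of these shifts was not tested.

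Differences that changed sign had all missed the thresholds. In DHI versus I/R, Mmp16 was -0.035 log2 without scaling. In DHI versus Sham, Mmp16 was -0.13 without scaling, Mmp9 was 0.073 with normexp and -1.32 to 0.064 when an array was left out, Mmp17 -0.83 to 0.50, and Timp3 -0.027 to 0.69. With normexp, which raises dim signals, the Mmp12 difference was 4.59 log2 in I/R versus Sham, -2.62 in DHI versus I/R, and 1.98 in DHI versus Sham. In I/R versus Sham, Mmp9 was -2.44 to -0.57 log2 and Timp3 0.88 to 1.13 log2 when an array was left out. These ranges are a description, since this comparison took part in choosing the genes. Without scaling, the median of all probes in DHI versus I/R moved from 0.10 to -0.36, and 4.80% of the probes past the thresholds were higher in DHI compared with 52.2%, and 63.7% with normexp. Over all probes, 5211 passed in DHI versus I/R, 468 with the methods' t-test, 2149 with only the 2 groups, and 939 to 10737 when an array was left out. Probes near background, such as Mmp3 and Mmp9, have the least certain values.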
